A study of Mus musculus with 15 samples.

Results

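Accessible regions of activated mouse CD4+ T cells were grouped by how densely they lie along the genome, and the 500 densest groups are described here. Peaks of the final list of activated IRF5+/+ cells were joined when closer than about 12 kb, the joining distance in common use for super-enhancers, which gave 28482 clusters from 55442 peaks. Clusters were ranked by number of peaks, with ties ordered by the bases their peaks cover, and the first 500 were kept. They hold 5295 peaks and are 1.76% of the clusters, of which 16461 were single peaks. Since the activated IRF5+/+ libraries chose and delimited the clusters, values of those libraries are given as a description, with no test.

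The assay was ATAC-seq, in which the Tn5 transposase cuts open DNA and inserts sequencing adapters. The nuclei came from CD4+ T cells of IRF5+/+ mice (called wild type) or of IRF5-/- mice (called knockout, lacking interferon regulatory factor 5), either untreated (0 h) or activated in vitro for 72 h. There are 15 libraries in 4 groups. Untreated cells gave 4 from the wild type and 3 from the knockout, numbered 1, 3 and 4, and activated cells gave 4 from either genotype. The labels give no stimulus, strain, age or sex, and they do not say whether the knockout affects T cells only. Nothing in them ties the libraries of a group to separate mice, and a p-value here therefore reflects only how far libraries vary, which may be technical.

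Clusters of enhancers were first described with that joining distance from histone or coactivator binding. In T cells such clusters lie around genes of cell identity, and activation through the T cell receptor brings factors of the AP-1, NFAT and NF-kB families to many new sites. The lists used here hold accessibility only, with no histone mark, so whether a cluster is an enhancer was not tested and the clusters are called dense peak clusters throughout.

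Depth ranged from 20.5 to 29.0 M fragments after duplicate removal. Each peak has a pileup, the number of fragments stacked at its summit, which was divided by the fragments kept, in M (mega), and summed over the peaks of a cluster. Properties of whole libraries touch every result. Over all of a library's peaks, mean pileup per peak and M was 1.93 to 3.58 at 0 h and 1.57 to 1.81 at 72 h. Knockout library 3 at 0 h stood apart, with 29994 peaks in all against 39807 to 47790 in the wild type at 0 h. Results are therefore also given after median scaling, set by the 14066 clusters with a peak in every library. A library's factor is the median log2 deviation of these clusters from their means over all libraries, and pileups were divided by it. The factor of knockout library 3 was −0.83 on the log2 scale. The Irf5 gene itself carried 2 to 4 peaks in every library of both genotypes, so these lists do not check the genotype labels. Of 8 T cell marker genes, 8 had a peak in the gene body in all 15 libraries, as did 2 of 8 B cell, 2 of 8 myeloid and 2 of 9 CD8 and NK cell markers. The 4 B cell markers with a promoter window had a peak there in none. Of the 4 myeloid markers with a window, 1 had a peak there in all 15 libraries and 2 in none. No marker promoter of CD8 or NK cells, of 7 with a window, had a peak in all 15, but that of Prf1 had one in all 7 untreated libraries and that of Gzmb, both genes of cytotoxic granules, in all 8 activated ones.

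Promoters and microRNAs inside the clusters are shown first, because the results below turn on the clusters they belong to. Promoter windows are the 300 bases from 250 before to 50 after an annotated start, from RefSeq on GRCm38.p6, the assembly behind the mm10 coordinates of the files. Capitals mark the letters of 8 searched motifs on either strand: the AP-1 motif TGANTCA, the ETS motif CCGGAAG, the RUNX motif TGTGGTT, the NFAT motif TGGAAAA, the E-box CACGTG, the GC box GGGCGG, the TATA sequence TATAAA, and an IRF motif of 2 GAAA copies with any 2 bases between them. The first window belongs to Gpr18, a lipid receptor gene inside the cluster of rank 1, at chr14:121915839-121916138 on the minus strand. It holds IRF letters that run into RUNX letters.
Gpr18: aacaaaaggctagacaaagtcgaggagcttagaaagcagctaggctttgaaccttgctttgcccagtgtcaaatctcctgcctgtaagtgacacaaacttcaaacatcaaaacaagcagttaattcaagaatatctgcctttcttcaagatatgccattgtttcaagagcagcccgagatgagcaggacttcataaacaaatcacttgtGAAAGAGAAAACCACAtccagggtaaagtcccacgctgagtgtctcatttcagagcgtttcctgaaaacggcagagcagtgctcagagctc
The window of Tnfrsf8, which encodes the activation receptor CD30 and lies in the cluster of rank 4, is at chr4:145315115-145315414 on the minus strand. From its 5′ end it holds a GC box, AP-1 letters and an E-box, none overlapping.
Tnfrsf8: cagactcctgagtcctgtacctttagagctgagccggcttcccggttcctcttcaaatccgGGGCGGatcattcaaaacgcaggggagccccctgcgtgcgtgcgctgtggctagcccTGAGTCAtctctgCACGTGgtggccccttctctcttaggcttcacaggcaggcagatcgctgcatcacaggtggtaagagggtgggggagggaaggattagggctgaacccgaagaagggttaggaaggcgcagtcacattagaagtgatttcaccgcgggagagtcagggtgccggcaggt
The window of Kcnk10, a potassium channel gene in one of the clusters with the largest gain on activation, is at chr12:98578164-98578463 on the minus strand and holds a GC box.
Kcnk10: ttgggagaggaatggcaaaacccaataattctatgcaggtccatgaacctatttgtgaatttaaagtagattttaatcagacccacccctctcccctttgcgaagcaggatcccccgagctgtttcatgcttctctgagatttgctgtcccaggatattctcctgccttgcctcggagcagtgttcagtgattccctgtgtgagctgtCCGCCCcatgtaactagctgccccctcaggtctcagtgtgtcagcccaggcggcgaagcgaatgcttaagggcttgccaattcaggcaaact
The window of Tcf7, a transcription factor gene of naive and memory T cells in a cluster that fell on activation, is at chr11:52282546-52282845 on the minus strand and holds a GC box, ETS letters and a TATA sequence.
Tcf7: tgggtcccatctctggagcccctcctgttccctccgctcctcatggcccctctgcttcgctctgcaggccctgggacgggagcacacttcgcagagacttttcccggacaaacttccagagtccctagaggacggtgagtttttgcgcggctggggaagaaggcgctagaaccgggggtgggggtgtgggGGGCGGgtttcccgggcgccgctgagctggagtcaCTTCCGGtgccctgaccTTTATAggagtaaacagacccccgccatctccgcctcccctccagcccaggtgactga

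The strongest peak over the Gpr18 window had a pileup per M fragments of 10.7, 12.3, 14.6 and 13.7 in the wild type at 0 h and 12.0, 5.47 and 12.3 in the knockout at 0 h. At 72 h it had 3.93, 4.32, 4.56 and 3.77 in the wild type and 3.16, 4.2, 3.71 and 3.32 in the knockout. Every library at 0 h was above every library at 72 h.

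The peak over the Kcnk10 window moved the other way. It had 1.25, 1.86, 1.33 and 1.5 in the wild type and 1.55, 0.65 and 1.46 in the knockout at 0 h, against 5.55, 5.66, 5.28 and 4.16 in the wild type and 4.32, 4.64, 5.59 and 5.15 in the knockout at 72 h. The times do not overlap in either genotype.

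At the Tnfrsf8 window the values were 2.94 to 4.04 in the wild type at 0 h and 4.51 to 5.70 at 72 h, so the times do not overlap. In the knockout they were 3.67, 1.07 and 3.26 at 0 h and 3.52, 3.03, 4.40 and 4.49 at 72 h, and the times overlap.

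Such letters are common in promoters. The GC box letters were in 58.9% of the 1009 windows in the clusters that overlap a peak, in 65.3% of all 14247 windows that overlap a peak and in 35.7% of all 32851 windows. The AP-1 letters were in 6.05%, 4.91% and 7.81% of these sets, the RUNX letters in 5.15%, 3.83% and 5.27%, the ETS letters in 16.6%, 17.1% and 8.86%, and the IRF letters in 3.07%, 2.88% and 3.44%. The E-box was in 11.5%, 10.3% and 7.15%, the TATA sequence in 8.52%, 6.23% and 13.6%, and the NFAT letters in 4.36%, 4.38% and 6.73%. A match is a stretch of letters, not a bound site.

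The clusters also hold 37 microRNA genes with 66 mature sequences, in 31 clusters. MicroRNAs pair with target transcripts mainly through the seed, bases 2 to 8, printed in capitals. The 4 shown here were picked as known from blood cells or for a shared seed, and their clusters were chosen after the values were seen. miR-142 is a microRNA of blood cells, and miR-132 and miR-212 lie next to each other and share the seed AACAGUC.
mmu-miR-142a-5p: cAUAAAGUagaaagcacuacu
mmu-miR-142a-3p: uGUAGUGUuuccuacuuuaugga
mmu-miR-132-3p: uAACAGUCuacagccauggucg
mmu-miR-212-3p: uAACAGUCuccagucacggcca

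The cluster with Mir142 (rank 148, labelled by Rnf43) had a summed pileup per M of 53.8, 55, 72.3 and 68.9 in the wild type at 0 h and 34.1, 36.1, 31.9 and 32.4 at 72 h. In the knockout it had 59.6, 23.6 and 57.6 at 0 h and 26.4, 23.8, 21.8 and 27.8 at 72 h. Only knockout library 3 at 0 h reached down to the activated values. The knockout difference between times was called lower after median scaling (log2 difference −0.46 ± 0.11 SE, adjusted p = 0.00705) and not per M (−0.79 ± 0.34, adjusted p = 0.0848).

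The cluster with Mir132 and Mir212 (rank 167, labelled by Rtn4rl1) had 7, 10, 9 and 10 peaks in the wild type at 0 h and 14, 12, 11 and 11 at 72 h, which do not overlap. In the knockout it had 8, 7 and 9 peaks at 0 h and 11, 9, 9 and 12 at 72 h. Its pileup in the knockout did not pass the test after scaling (log2 difference −0.12 ± 0.11, adjusted p = 0.350).

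The 500 clusters held 8 to 37 peaks, with a median of 10, and spanned 21.6 to 220 kb, with a median of 55.6 kb. Peaks covered 8.37% to 30.2% of a cluster's length, with a median of 15.3%. The last clusters inside the limit, at Tex14, near Lrpprc and at Ppp1r9b, had 8 peaks over 6089, 6071 and 6046 bp. The first outside, at N4bp1, Tmie and Trim46, had 8 peaks over 6039, 6032 and 6015 bp. In all, 166 clusters had 8 peaks, 140 of them inside, so the limit cuts through a continuous distribution.

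Of the peaks in the clusters, 14.9% overlapped a promoter window, against 19.9% of the peaks in all other clusters, and 65.3% against 64.5% lay in a gene body. Of the peaks in the 500 clusters, 54.1% overlapped a peak in all 7 libraries at 0 h, against 41.0% elsewhere, and 18.9% overlapped none, against 31.6%. The next 500 clusters in rank were closer to them, with 52.7% in all 7, 20.8% in none and 17.8% at promoters, and none of these differences was tested. In the activated knockout, 73.9% of the peaks overlapped one in all 4 libraries and 2.63% in none, against 70.6% and 3.10% elsewhere. All 500 held at least 1 peak of each of the other 3 final lists.

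The same rule applied to each of the other final lists gave 500 clusters of which part overlapped these. Of the 500 described here, 273 (54.6%) overlapped the 500 densest of untreated wild type cells, 272 (54.4%) those of untreated knockout cells and 349 (69.8%) those of activated knockout cells. All 3 lists shared 189, and 195 (39.0%) overlapped neither untreated list. Of the untreated wild type's own 500, 275 (55%) overlapped these, and of the activated knockout's, 351 (70.2%).

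The clusters lay around 0 to 16 protein-coding genes, with a median of 2 and 1148 of 21887 genes (5.25%) in all. No protein-coding gene lay in 35 clusters, 1 in 212, 2 to 4 in 186 and 5 or more in 67. The gene-rich clusters had 38.7% of their peaks at promoters and 65.6% in all 7 libraries at 0 h, and the clusters with no gene had 5.80% and 46.4%. The highest-ranked cluster without a protein-coding gene, rank 16 on chromosome 2, holds the long noncoding RNA Morrbid, known to regulate the lifespan of short-lived blood cells, and was singled out after its values were seen. It had a scaled pileup of 21.3 ± 0.672 (SD, n = 3) at 0 h and 33.0 ± 2.66 (SD, n = 4) at 72 h in the knockout (log2 difference 0.62, adjusted p = 9.9e-05), and 0.28 with adjusted p = 0.482 per M.

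The largest cluster, rank 1 on chromosome 14 (121895377 to 122079943), had 37 peaks around Gpr183, an oxysterol receptor that guides lymphocyte positioning, Gpr18, Ubac2 and Timm8a2. Its summed pileup per M was 112, 141, 172 and 160 in the wild type at 0 h, 136, 53.8 and 140 in the knockout at 0 h, 79.5, 77.7, 89.0 and 63.9 in the wild type at 72 h, and 56.1, 65.7, 63.0 and 61.0 in the knockout at 72 h. Apart from knockout library 3, every untreated library was above every activated one. Knockout activation was called lower after scaling (−0.37 ± 0.05, adjusted p = 0.000271) and not per M (−0.71 ± 0.32, adjusted p = 0.101).

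Rank 2, on chromosome 4 (32205573 to 32425987), was the longest and contained Bach2, a repressor that holds T cells in a resting state. Its pileup per M was 119, 134, 158 and 153 in untreated wild type cells and 120, 55.5 and 136 in untreated knockout cells. After activation it was 62.8, 71.5, 78.1 and 56.1, and 52.6, 51.6, 52.3 and 53.3. The number of peaks hardly moved in the knockout, with 34, 27 and 28 before and 34, 28, 29 and 33 after. The fall in the knockout passed the test per M (−0.88 ± 0.30, adjusted p = 0.0391) and after scaling (−0.54 ± 0.04, adjusted p = 1.76e-05).

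Rank 4, on chromosome 4 (145193865 to 145361490), held Tnfrsf8, Tnfrsf1b (a TNF receptor) and Vps13d. It had 25, 27, 24 and 26 peaks in the wild type at 0 h and 32, 35, 30 and 28 at 72 h, and 24, 18 and 25 against 31, 27, 29 and 29 in the knockout. The times do not overlap in either genotype. Its pileup in the knockout rose after scaling (0.63 ± 0.03, adjusted p = 2.01e-06), while the per M difference was 0.29 ± 0.30 (adjusted p = 0.452).

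Rank 3 (chromosome 11, at Sfi1) had the highest pileup of the first 10, 295 to 631 per M over all libraries. Sfi1 has near-identical copies in the mouse genome, so reads there may not be uniquely placed and its values are uncertain. The other clusters of the first 10 lay at Itgal, which encodes an integrin of lymphocytes, the chromatin remodeller gene Chd2, the transcription factor gene Foxp1, the homing receptor gene Ccr7, the paired surface receptor genes Cd5 and Cd6, and a cluster of 16 protein-coding genes most of which encode histones. After scaling, Ccr7 (−0.69 ± 0.07, adjusted p = 5.81e-05), Chd2 (−0.40 ± 0.04, adjusted p = 7.45e-05), Cd6 (−0.26 ± 0.09, adjusted p = 0.0295), Foxp1 (−0.19 ± 0.07, adjusted p = 0.0381) and Itgal (−0.17 ± 0.05, adjusted p = 0.0110) fell in the knockout, and the Sfi1 (0.02 ± 0.08, adjusted p = 0.842) and histone clusters (0.10 ± 0.07, adjusted p = 0.250) did not pass the test.

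Over the 500 clusters together, the activated libraries had more peaks of lower mean pileup than the untreated ones. The clusters were outlined on activated wild type peaks, so a higher number of peaks at 72 h is built in. The wild type libraries had 4273 to 5023 peaks in the clusters at 0 h and 5320 to 5973 at 72 h, and the knockout libraries 4822, 3589 and 4423 at 0 h and 5184 to 5271 at 72 h. Mean pileup per peak and M fragments was 3.56 to 4.17 in the wild type and 3.31, 1.99 and 3.95 in the knockout at 0 h, and 1.88 to 2.22 and 1.77 to 1.93 at 72 h. The peaks covered 3205 ± 229 kb (SD, n = 4) in the wild type at 0 h and 3358 ± 161 kb (n = 4) at 72 h, and 2391 ± 538 kb (n = 3) and 2833 ± 164 kb (n = 4) in the knockout. The times overlap in neither genotype in the number of peaks, but they do in the bases covered. The share of a library's peaks that fell in the clusters was 9.88% to 12.0% at 0 h and 8.42% to 9.34% at 72 h.

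**Figure D1:**
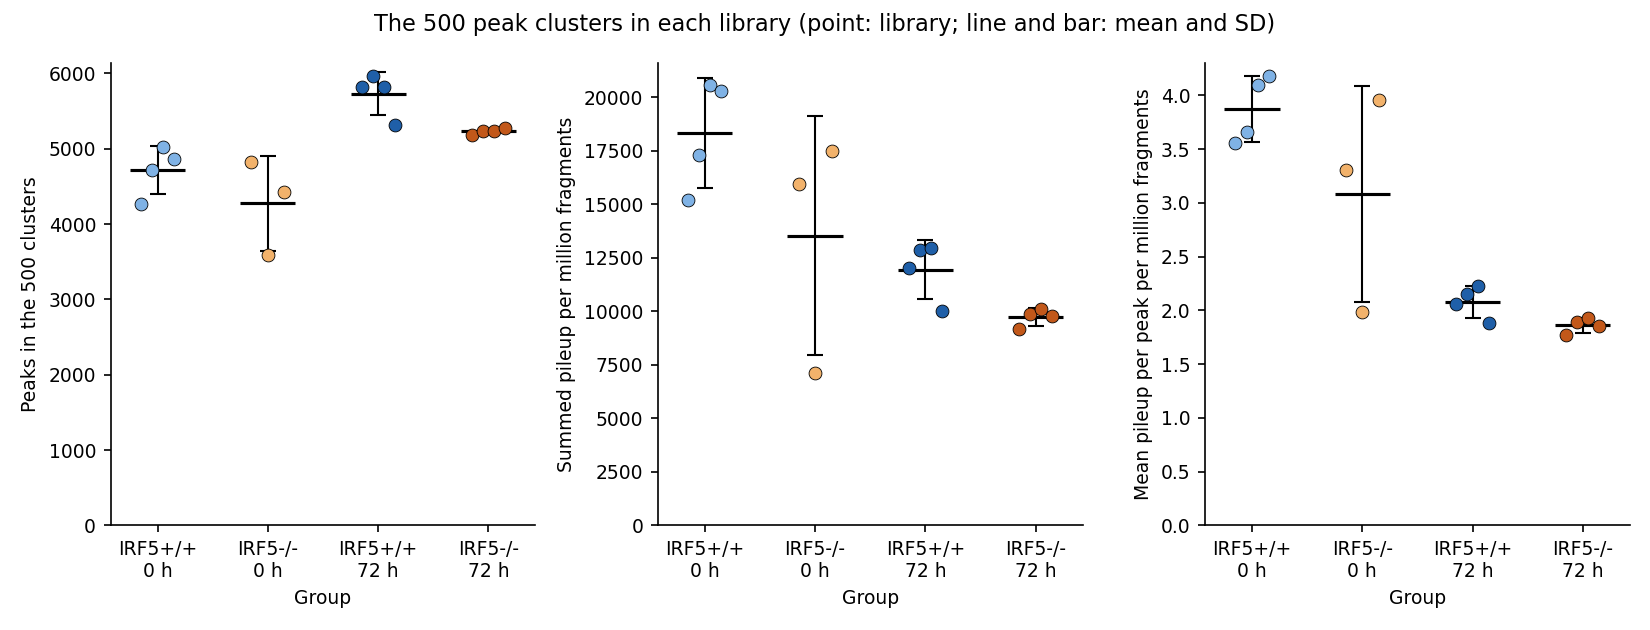
Peaks in the 500 clusters, their summed pileup per M fragments and the mean pileup per peak, for each library (points) with the mean and SD of the group (lines and bars). The activated libraries have more peaks (5184 to 5973) of lower mean pileup (1.77 to 2.22), and 1 untreated knockout library lies at the bottom of its group in all 3 panels.

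Knockout activation was the comparison free of the libraries that chose the clusters, and limma fits over the 26064 clusters with a peak in at least 3 of its 7 libraries tested it. The 500 clusters all passed that filter. Activated peaks drew the outlines of every cluster in the fit, members or not, so a gain of peaks is built into all of them. Activated libraries alone can also meet the filter, and an untreated library without a peak then counts as 0. Of the peaks outside the 500, 38.4% overlapped none in untreated knockout libraries, against 24.4% inside. Untreated knockout libraries had no peak in 0 to 2 of the 500. How far absent values raise the background share called higher was not tested. Per M fragments, 26 of the 500 (5.2%) were higher at 72 h, against a background of 38.9% of all tested clusters, and 62 (12.4%) were lower, against 7.53%. The median log2 difference of the 500 was −0.32, beside 0.35 over all tested clusters. It was −0.73, beside 0.003, without knockout library 3 at 0 h, −0.16, beside 0.51, without library 1, and −0.09, beside 0.56, without library 4. Median scaling moved the median of all tested clusters to 0.67 and that of the 500 to 0.01. Nearly all of the 500 are among the clusters that set the scaling, and many of the other tested clusters are not. The value near 0, and similar counts in both directions, are thus partly set by the scaling. After scaling, 179 were higher (background 55%) and 187 lower (background 17%). By number of peaks, 114 were higher (background 28.6%) and 3 lower (background 0.322%). The next 500 clusters in rank gave similar numbers, with 40 higher and 58 lower per M and 194 and 147 after scaling. By number of peaks they gave 133 and 6.

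The per M counts moved with single libraries more than the scaled counts did. Without knockout library 3 at 0 h, 40 clusters were higher and 386 lower per M, when 8857 and 9806 of all 26045 clusters then tested were called. After scaling, 169 were higher and 177 lower, when 12317 and 3909 of all were called. Leaving out any other knockout library left 14 to 20 lower, beside 636 to 944 of all clusters. Without knockout library 3 at 72 h 17 were higher, beside 7856 of all 24619. All 26 and all 62 clusters called per M were also called in the same direction after scaling. Of the clusters called higher after scaling, 75 were also called higher by number of peaks. Of those called lower after scaling, 14 were called higher by number of peaks. In 326 of the 500 clusters, the number of peaks and the scaled pileup moved the same way. In 169 the number of peaks was higher at 72 h while scaled pileup was lower (Pearson r = 0.811 across clusters, a description). Summed pileup adds up the same peaks, so part of this relation is built in, and it was counted for the 500 only.

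**Figure D2:**
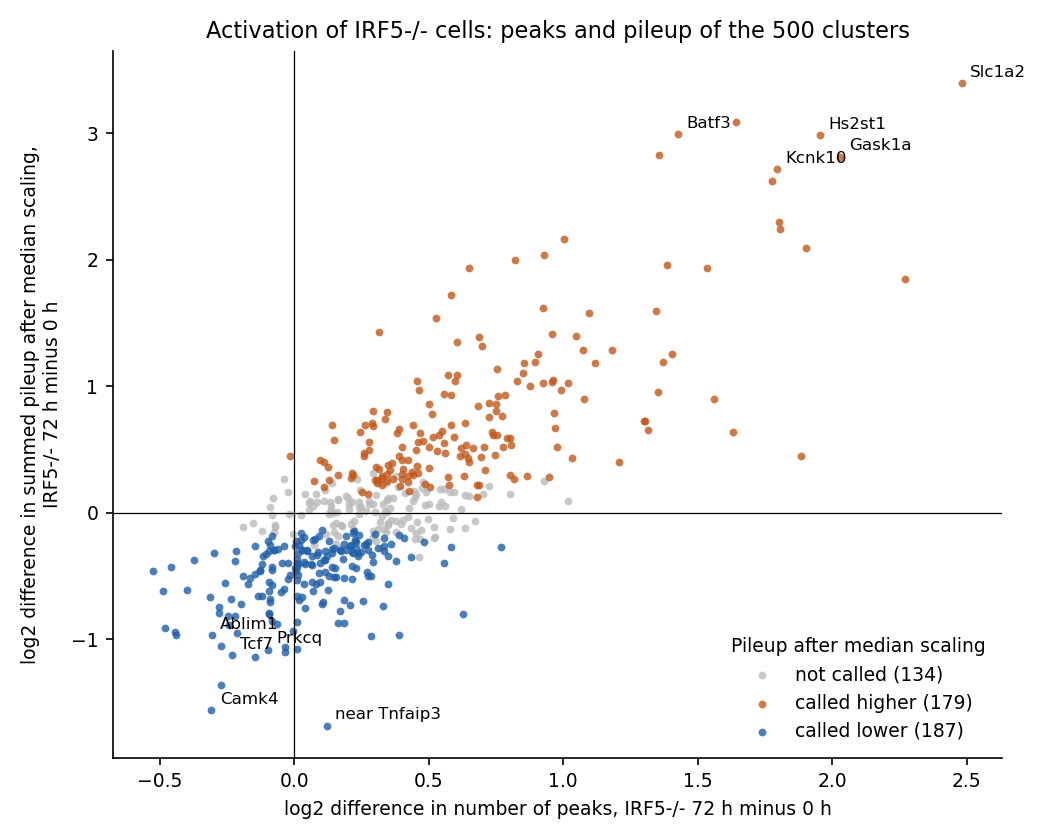
Log2 difference between 72 h and 0 h in the knockout in number of peaks (x axis) and in summed pileup after median scaling (y axis), 1 point per cluster, coloured by the call on scaled pileup. Most points lie to the right of 0, and the 179 higher and 187 lower clusters separate along the y axis.

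The 10 clusters with the lowest adjusted p among those higher lay at Slc1a2, Kcnk10, Hs2st1, Batf3, Gask1a, Gm5544, Ripk2, Pgm1 and Vav3 and, in a gap with no gene, 101925 bp from Smim20. Summed over the 26 higher clusters, knockout libraries had 72 to 135 peaks at 0 h and 231 to 249 at 72 h, covering 51.8 ± 20.3 kb (SD, n = 3) and 121 ± 8.76 kb (n = 4), at a mean pileup per peak of 1.23 ± 0.344 and 1.67 ± 0.0492. The Slc1a2 cluster (rank 177, chromosome 2, 102685419 to 102775005) overlaps the gene of a glutamate transporter. It had 1, 2, 4 and 3 peaks in the wild type and 2, 1 and 1 in the knockout at 0 h, against 12, 9, 12 and 11 in the wild type and 9, 8, 11 and 10 in the knockout at 72 h. The ranges are far apart in both genotypes. Its pileup per M was 1.87, 0.574 and 0.584 in the knockout at 0 h and 10.8, 9.77, 13.4 and 11.4 at 72 h (log2 difference 3.07 ± 0.33 SE, adjusted p = 7.07e-05, the lowest of the 500).

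The Kcnk10 cluster (rank 340, chromosome 12, 98572176 to 98628812) also holds Spata7. Its pileup per M was 2.86, 5.59, 3.60 and 4.12 in the wild type and 3.49, 1.72 and 4.33 in the knockout at 0 h, and 22.2, 20.7, 23.0 and 17.8 and 18.4, 15.1, 19.4 and 17.8 at 72 h. No activated library overlapped an untreated one, and the knockout difference was 2.37 ± 0.32 (adjusted p = 0.000228). The peak over the window printed above was called in all 15 libraries.

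Batf3 encodes a transcription factor of the AP-1 group. Its cluster (rank 443) had 3.26, 4.76, 3.92 and 4.83 per M in the wild type and 2.86, 0.574 and 2.92 in the knockout at 0 h, and 18.6, 21.3, 18.8 and 15.4 and 13.8, 12.8, 16.6 and 11.4 at 72 h. The times do not overlap, and the knockout difference was 2.6 ± 0.42 (adjusted p = 0.000848). The number of peaks in the knockout did not pass the test (1.43, adjusted p = 0.0935).

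Ripk2, a kinase downstream of NOD receptors, Pgm1, a phosphoglucomutase, Hs2st1, a sulfotransferase for heparan sulfate, and Vav3, a guanine nucleotide exchange factor, lay in clusters of 8 peaks each. Ripk2 had 3.74, 0.459 and 4.24 per M in the knockout at 0 h and 14.6, 16.5, 18 and 17.4 at 72 h (2.67 ± 0.52, adjusted p = 0.00270). Pgm1 had 6.39, 1.91 and 5.94 against 16.2, 17.8, 18 and 16.4 (1.89 ± 0.38, adjusted p = 0.00328). In both the activated libraries were well above the untreated ones. The Hs2st1 (2.6 ± 0.42, adjusted p = 0.000780), Vav3 (1.81 ± 0.38, adjusted p = 0.00443), Gask1a (2.41 ± 0.41, adjusted p = 0.00116), Gm5544 (1.67 ± 0.32, adjusted p = 0.00249) and Smim20-side clusters (2.45 ± 0.48, adjusted p = 0.00267) gave the same direction, and all 10 were called after scaling.

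Over the 62 lower clusters the numbers of peaks overlapped, with 606 to 735 at 0 h and 634 to 647 at 72 h, covering 368 ± 68.9 kb (SD, n = 3) and 339 ± 20.8 kb (n = 4), while the mean pileup per peak was 3.62 ± 1.25 and 1.62 ± 0.0579. The 10 with the lowest adjusted p lay at Camk4, Tcf7, Prkcq, Gramd3, Prkch, Ablim1, Pip4k2a and Arhgap25 and in gaps 45981 bp from Tnfaip3 and 139744 bp from Olig3. The cluster beside Tnfaip3, the gene of an inhibitor of NF-kB signalling, had the largest fall. Its pileup per M (rank 423, chromosome 10, 19061392 to 19122821) was 65.9, 67.6, 81.6 and 89.5 in the wild type and 64.0, 32.7 and 77.8 in the knockout at 0 h. It was 16.9, 15.6, 18.1 and 12.48 in the wild type and 11.7, 14.6, 13.1 and 13.4 in the knockout at 72 h. The knockout difference was −2.01 ± 0.31 (adjusted p = 0.000629). Yet 7, 7 and 8 peaks were called in the knockout at 0 h and 8 in each library at 72 h.

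The Tcf7 cluster (rank 14, chromosome 11, 52260979 to 52374691) reaches from Tcf7 to Vdac1, a mitochondrial channel gene. Its pileup per M was 76.4, 83.2, 110 and 105 in the wild type and 83.8, 38.9 and 89.4 in the knockout at 0 h, and 31.3, 36.1, 35.5 and 29.1 and 24.7, 21.7, 23.1 and 26.1 at 72 h. Every untreated library was above every activated one, and the knockout difference was −1.45 ± 0.31 (adjusted p = 0.00418). Its peak count of 22, 17 and 21 at 0 h and 17, 14, 17 and 20 at 72 h did not pass the test (−0.23, adjusted p = 0.348). Over the Tcf7 window printed above, a peak was called in all 7 untreated libraries, and at 72 h in 2 of 4 libraries of each genotype. A second Tcf7 window, at chr11:52282965-52283264 on the same strand, had a peak in all 4 activated wild type libraries (pileup per M 0.77, 1.13, 0.73 and 0.89), in 2 of 4 activated knockout libraries (1.25 and 0.90) and in 6 of 7 untreated libraries, all but knockout library 3 (1.61 to 2.45).

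Camk4 encodes a calcium-dependent kinase of T cells, and Prkcq the protein kinase C isoform theta, which acts below the T cell receptor. The Camk4 cluster had 41.7, 44.5, 47.8 and 52.3 per M in the wild type and 38.3, 17.8 and 45.5 in the knockout at 0 h, and 9.40, 13.4, 12.7 and 9.72 and 8.10, 7.19, 10.2 and 7.53 at 72 h (knockout difference −1.88 ± 0.35, adjusted p = 0.00190). The Prkcq cluster had 62.9, 30.1 and 61.1 in the knockout at 0 h and 20.6, 16.5, 17.2 and 18.1 at 72 h (−1.41 ± 0.30, adjusted p = 0.00421). The times do not overlap in either cluster. Gramd3 (−1.69 ± 0.35, adjusted p = 0.00422), Prkch, which encodes another protein kinase C (−1.43 ± 0.31, adjusted p = 0.00524), the actin-binding gene Ablim1 (−1.30 ± 0.29, adjusted p = 0.00629), the lipid kinase gene Pip4k2a (−1.47 ± 0.33, adjusted p = 0.00661) and Arhgap25 (−1.40 ± 0.33, adjusted p = 0.00756), fell as well, as did the cluster beside Olig3 (−1.39 ± 0.32, adjusted p = 0.00655).

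**Figure D3:**
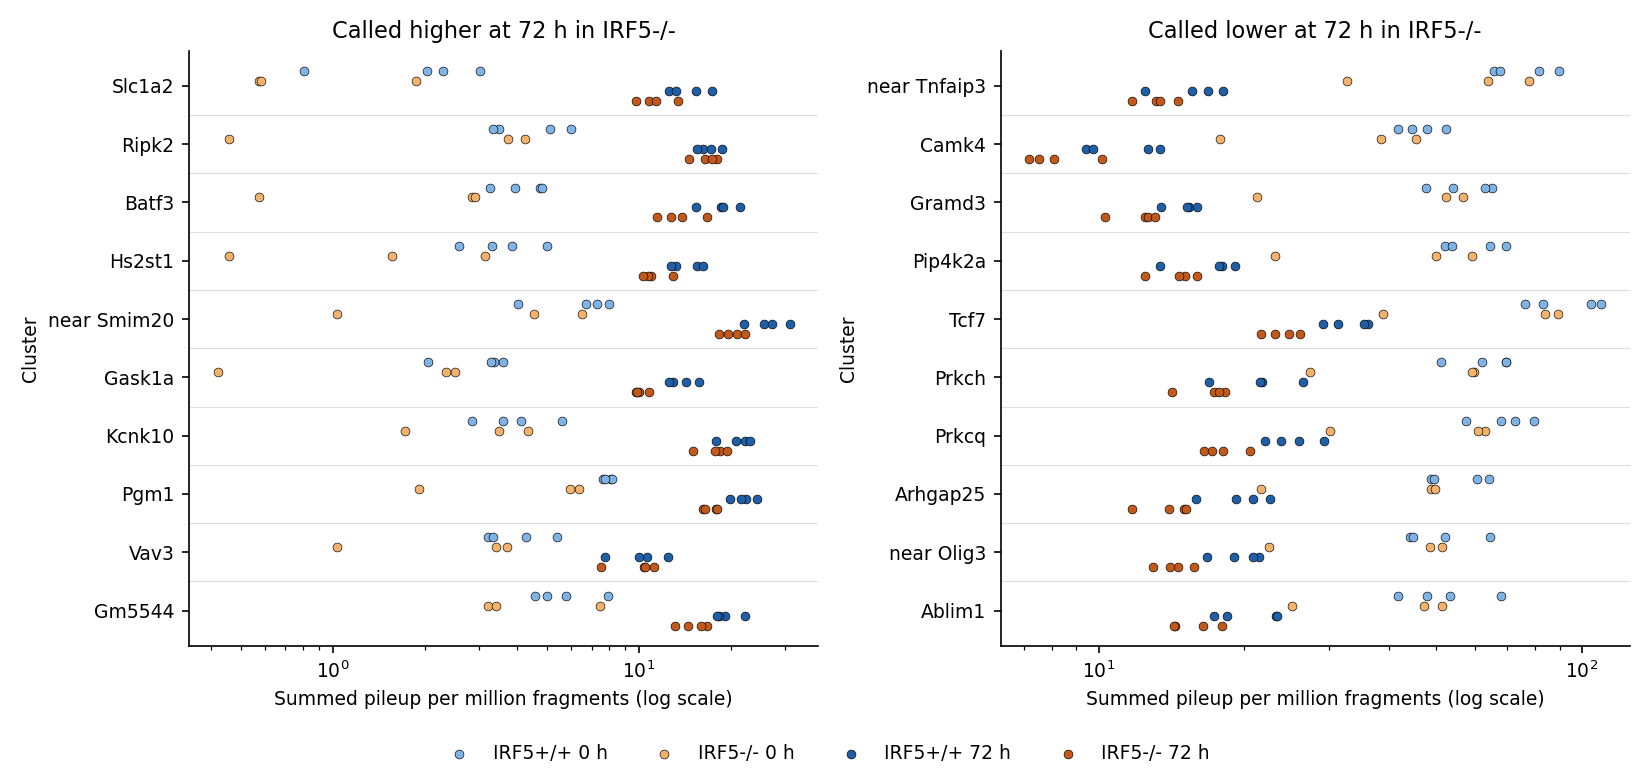
Summed pileup per M fragments (log scale) of the 10 clusters called higher and the 10 called lower at 72 h in the knockout with the lowest adjusted p, 1 point per library, coloured by group. In every cluster shown the activated and untreated libraries of the same genotype are apart, and both genotypes moved the same way.

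**Figure D4:**
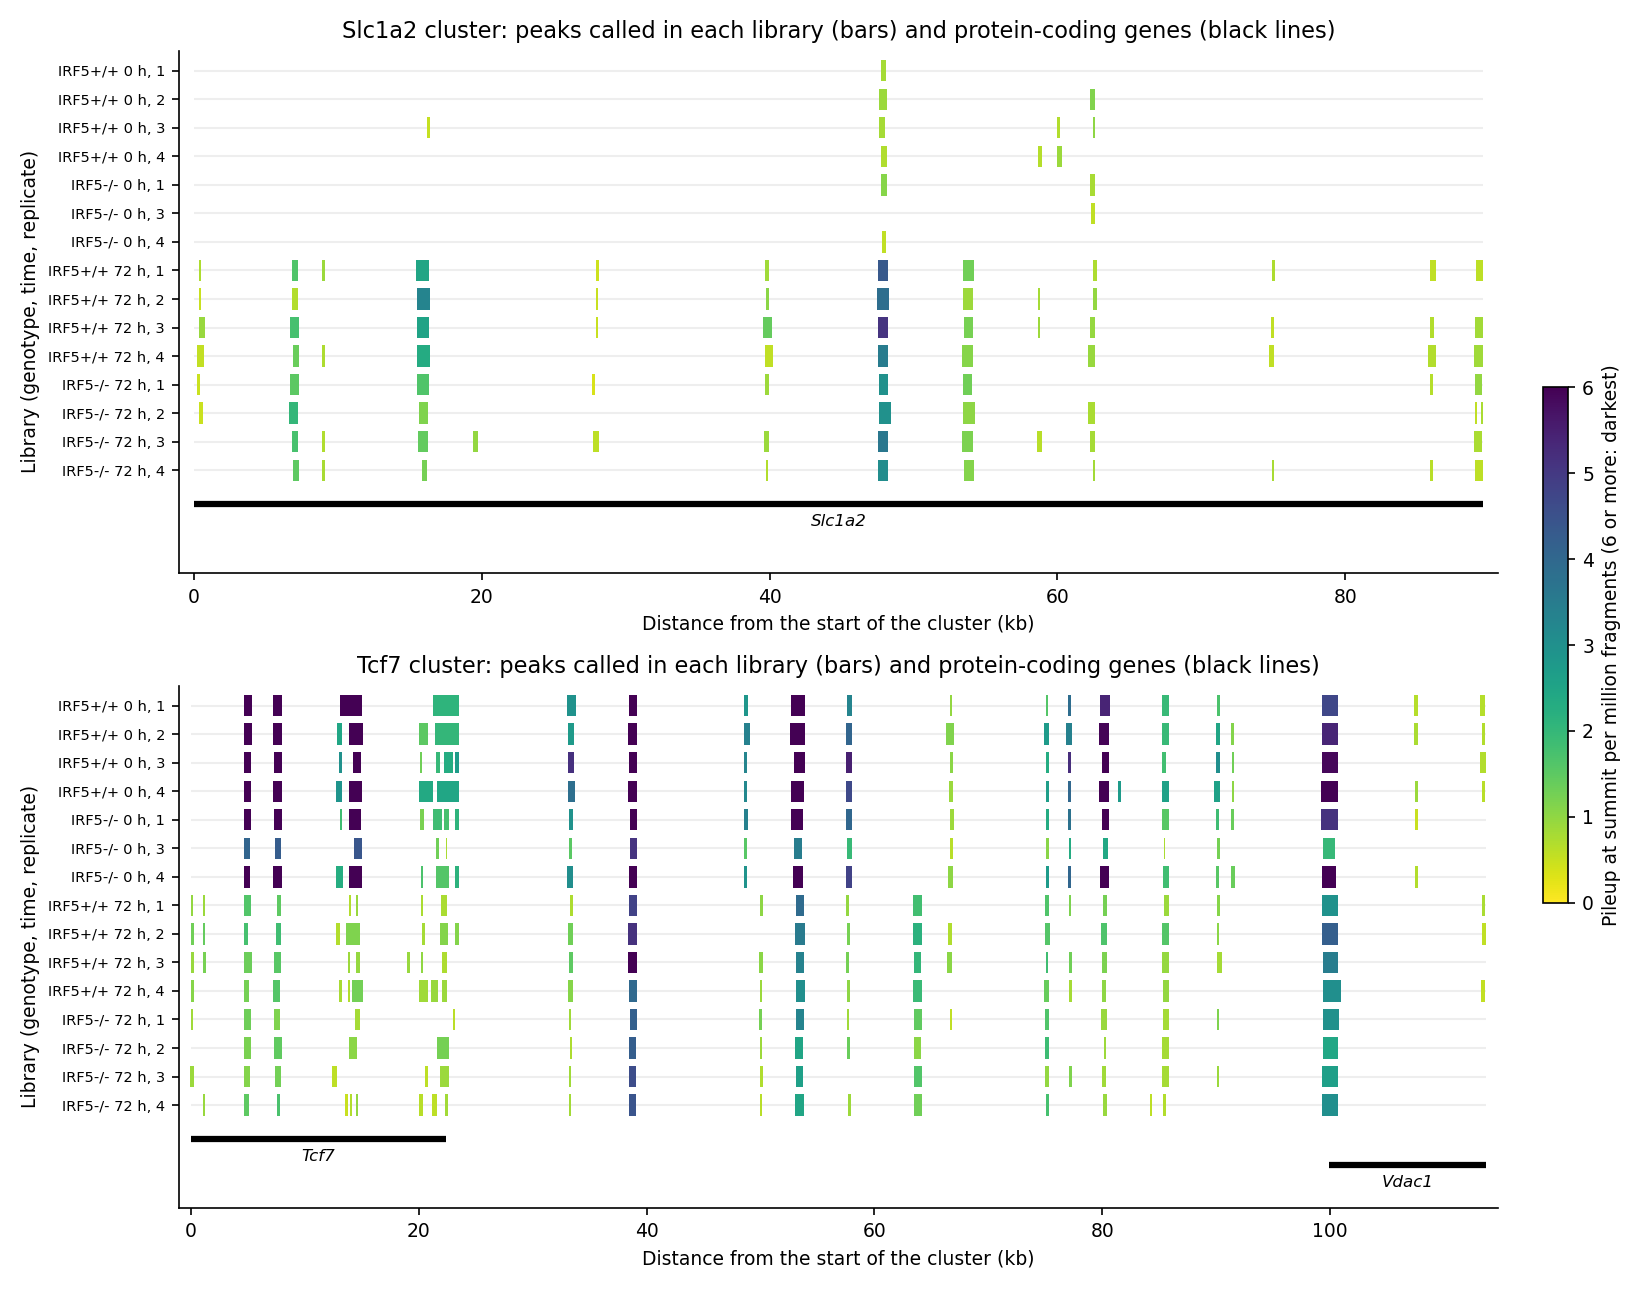
Peaks called in each library along the Slc1a2 cluster (89.6 kb) and the Tcf7 cluster (114 kb), placed by distance from the start of the cluster and coloured by pileup per M fragments, with protein-coding genes as black lines. The Slc1a2 cluster has 1 to 4 peaks in untreated and 8 to 12 in activated libraries, while the Tcf7 cluster has 17 to 22 and 14 to 22, at lower pileup after activation.

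The genes of 10 lists of T cell function, and of 4 marker lists, were looked up in the clusters. The counts below stand against the background of all tested clusters, 55% higher and 17% lower after scaling and 38.9% and 7.53% per M, and against the 500, of which 35.8% were higher and 37.4% lower after scaling. The lists hold few clusters each, and no difference between a list and these shares was tested. Of 22 transcription factors of T lineage and quiescence, 11 lay in the 500 clusters, in 13 clusters, since Foxp1 and Ikzf1 each reach into 2. After scaling, 10 of the 13 fell in the knockout and 1 rose, with a median log2 difference of −0.50 beside 0.67 over all tested clusters. Per M, 5 fell and 0 rose. Besides Bach2, Tcf7 and Foxp1, the clusters of Klf2, a regulator of T cell migration (−0.54 ± 0.07 after scaling, adjusted p = 0.000238), Lef1, a partner of Tcf7 (−0.29 ± 0.05, adjusted p = 0.000661), Ets1 (−0.29 ± 0.08, adjusted p = 0.0121), Bcl11b (−0.50 ± 0.07, adjusted p = 0.000394) and Runx1 (−0.70 ± 0.06, adjusted p = 3.7e-05) fell. Ikzf1 lay in 2 clusters that moved apart, rank 372 (0.24 ± 0.07, adjusted p = 0.0134) and rank 451 (−0.82 ± 0.13, adjusted p = 0.000760).

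Of 32 activation and effector transcription factors, 12 lay in 12 clusters, of which 6 rose and 3 fell after scaling (median 0.10), while 1 rose and 1 fell per M. Batf3 rose most. Tbx21, the T helper 1 regulator (1.28 ± 0.19, adjusted p = 0.000437), Nfkb1 (0.52 ± 0.06, adjusted p = 0.000113), Nfatc2 (0.71 ± 0.10, adjusted p = 0.000387), Hif1a (0.43 ± 0.06, adjusted p = 0.000350) and Egr2 (0.26 ± 0.08, adjusted p = 0.0247) also rose. The clusters of Junb (−0.25 ± 0.04, adjusted p = 0.00134) and Nfatc1 (−0.44 ± 0.06, adjusted p = 0.000469) fell, and that of Stat5a and Stat5b fell under both scalings (−0.95 ± 0.06, adjusted p = 8.8e-06 after scaling). Irf4 did not pass the test (−0.06 ± 0.09, adjusted p = 0.57).

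Of 24 cytokine and chemokine genes, 6 lay in 3 clusters. The Ifng cluster (1.60 ± 0.29, adjusted p = 0.00150) and the cluster of Il4 and Il13, the type 2 cytokines (1.19 ± 0.14, adjusted p = 0.000145), rose after scaling, and the cluster of Tnf, Lta and Ltb fell (−0.40 ± 0.06, adjusted p = 0.000407). None passed per M, where their adjusted p-values were 0.0852, 0.0610 and 0.0626. Of 24 cytokine receptor genes, 8 lay in 7 clusters, with 1 higher and 4 lower after scaling and none called per M. The cluster of Il4ra and Il21r rose (0.42 ± 0.10, adjusted p = 0.00640), Il6st (−0.46 ± 0.06, adjusted p = 0.000194) and Tgfbr2 (−0.29 ± 0.07, adjusted p = 0.00849) fell, and the high-affinity interleukin receptor gene Il2ra did not pass (0.10 ± 0.08, adjusted p = 0.312).

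Genes of homing and adhesion were in 12 clusters (12 of 22 genes), with 2 higher and 8 lower after scaling and 0 and 2 per M. Among them S1pr1, a sphingosine phosphate receptor (−0.23 ± 0.04, adjusted p = 0.00110), Cxcr5 (−0.61 ± 0.12, adjusted p = 0.00303) and Itgb2 (−0.80 ± 0.06, adjusted p = 1.9e-05) fell, and Ccr4 (0.81 ± 0.10, adjusted p = 0.000144) and Ccr9 (0.73 ± 0.12, adjusted p = 0.000964) rose. Genes of T cell receptor signalling were in 12 clusters (12 of 24 genes), with 2 higher and 6 lower after scaling and 0 and 3 per M. Rasgrp1 rose (0.67 ± 0.09, adjusted p = 0.000276), while Ptprc (−0.41 ± 0.05, adjusted p = 0.000155) and Cblb (−0.52 ± 0.06, adjusted p = 9.7e-05) fell.

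Costimulatory and inhibitory receptor genes lay in 10 clusters (13 of 22 genes), with 3 higher and 3 lower after scaling and 0 and 1 per M. Cd28 fell under both (−0.97 ± 0.06, adjusted p = 6.5e-06 after scaling). The cluster of Tnfrsf4 and Tnfrsf18 rose after scaling (0.56 ± 0.06, adjusted p = 7.5e-05), and the cluster of Ctla4 and Icos did not pass (−0.01 ± 0.06, adjusted p = 0.882).

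The remaining lists touched fewer clusters. Interferon regulatory factors and interferon-stimulated genes were in 3 clusters (3 of 22 matched genes), with 2 higher after scaling, among them Irf2 (0.22 ± 0.09, adjusted p = 0.0476). Of 6 STAT feedback inhibitors only Cish was in a cluster, and it rose (0.97 ± 0.05, adjusted p = 4.37e-06). Genes of growth and cell cycle were in 5 clusters (5 of 25), where Cdk4 rose (0.48 ± 0.06, adjusted p = 0.000191) and Ccnd3 fell (−0.51 ± 0.07, adjusted p = 0.000247). Of the marker lists, 3 of 8 T cell markers, 1 of 9 CD8 and NK markers (Nkg7) and 0 of 8 B cell and 0 of 8 myeloid markers lay in the clusters. The 3 T cell marker clusters gave 0 higher and 2 lower after scaling, and the Nkg7 cluster rose (0.79 ± 0.04, adjusted p = 4.21e-06).

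By gene content, the 35 clusters with no protein-coding gene had 19 higher and 10 lower after scaling (median 0.34), and the 67 with 5 or more had 15 and 35 (median −0.18). The 212 with 1 gene had 83 and 81, and the 186 with 2 to 4 had 62 and 61. Over all tested clusters 55% were higher and 17% lower after scaling. The clusters with no gene had 54.3% higher and 28.6% lower, and those with 5 or more had 22.4% and 52.2%. These are counts within the 500 and were not tested against each other or against the background.

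In the untreated cells the genotypes were compared over 19082 clusters with a peak in at least 3 of 7 libraries, again including all 500. The knockout libraries at 0 h are the same ones as in knockout activation. Per M, 0 of the 500 were higher and 26 lower in the knockout at unadjusted p under 0.05, beside 0 and 1550 of all 19082. After adjustment 0 were higher (background 0%) and 2 lower (background 0.0838%). In both lower clusters the lowest value is that of knockout library 3, where no peak was called. The Rtn4rl2 cluster (rank 465) had 8.12, 8.31, 10.5 and 11.6 per M in the wild type and 7.63, 0 and 8.82 in the knockout, and the Ctsh cluster (rank 473) had 1.96, 5.59, 3.64 and 4.75 against 1.87, 0 and 2.24. Without that library 0 were called in limma's test. At unadjusted p under 0.05, 0 were then higher and 7 lower, beside 41 and 782 of all 19070 clusters tested.

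After scaling 0 were called either way (background 0.00524% for each direction). At unadjusted p under 0.05, 5 were higher and 43 lower, beside 692 and 1090 of all 19082. By number of peaks, 1 was higher and 29 lower at unadjusted p under 0.05, beside 124 and 447 of all 19082. After adjustment 0 were higher (background 0.0734%) and 1 lower (background 0.545%). The lower one is at Mbp (rank 430), known for myelin basic protein, where the log2 difference was −0.18 (adjusted p = 3.5e-05); it was picked out after its value was seen, and counts of peaks that hardly vary within groups give such p-values at small differences. Without knockout library 3, 2 were higher and 2 lower by number of peaks, beside 68 and 120 of all 19070 clusters then tested. The median difference of the 500 was −0.54 per M, beside −0.47 over all clusters, and −0.03 after scaling, beside −0.04. Without knockout library 3 the per M median was −0.13, beside −0.11.

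The wild type activation and the genotype difference at 72 h use the libraries that chose the clusters, so they are described without a test. Between 0 h and 72 h in the wild type, groups did not overlap in 38 clusters that were higher (background 35.4%) and 285 that were lower (background 28.8%) per M, and in 184 (background 50.3%) and 148 (background 15.6%) after scaling. By number of peaks 168 were higher (background 31.1%) and 5 lower (background 0.253%). Median differences were −0.58 per M and 0.02 after scaling, beside 0.30 and 0.70 over all clusters. The largest non-overlapping gains per M were at Slc1a2 (2.65), Kcnk10 (2.27), Batf3 (2.02), Gask1a (2.02) and beside Smim20 (1.98). The largest falls were beside Tnfaip3 (−2.24) and at Camk4 (−2.01), Gramd3 (−1.89), Pip4k2a (−1.78) and St6gal1 (−1.76), a sialyltransferase gene. The St6gal1 cluster had 59.9, 70.0, 75 and 75 in the wild type at 0 h and 19.7, 22.2, 21.9 and 17.3 at 72 h.

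The wild type and knockout activation share no library. Of the 184 clusters that did not overlap upward in the wild type after scaling, 153 (83.2%) did so in the knockout. These were 87.9% of the knockout's 174. Over all tested clusters 49.2% did not overlap upward in the knockout and 17.4% downward, whatever they did in the wild type. Downward, 139 were shared, 93.9% of the wild type's 148 and 76.4% of the knockout's 182. Sharing between genotypes was counted for the 500 only, so whether it is particular to them was not tested. None moved in opposite directions by this count, and 458 of 500 differences had the same sign (Pearson r = 0.965 across clusters, which share outlines and libraries within a genotype).

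**Figure D5:**
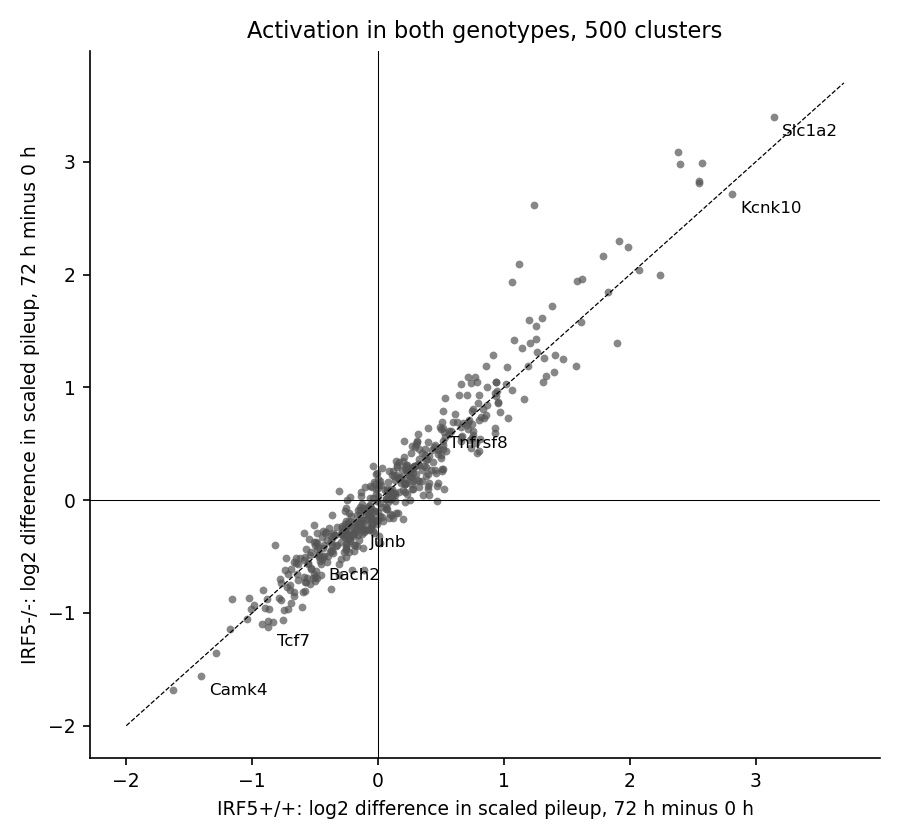
Log2 difference in scaled pileup between 72 h and 0 h in wild type (x axis) and knockout cells (y axis), 1 point per cluster, with the line of equal change dashed. The points follow the line, with Slc1a2 (3.15 and 3.40) at the top and Camk4 (−1.41 and −1.56) near the bottom.

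At 72 h the knockout was below the wild type in most clusters per M, with 0 clusters higher without overlap (background 0.204%) and 159 lower (background 13.5%). The median difference was −0.30, beside −0.23 over all clusters, and moved to −0.06 after scaling, beside −0.03. After scaling 6 clusters were higher (background 3.48%) and 39 lower (background 4.22%), and by number of peaks 0 (background 0.0421%) and 33 (background 1.39%). The clusters were chosen for being dense in the activated wild type, and how far that choice lowers the knockout values beside it was not tested.

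Among the clusters whose groups do not overlap per M, those lowest in the activated knockout relative to the wild type were picked. They lay at Hivep3, a zinc finger gene, Ikzf3, a lymphocyte zinc finger gene of the Ikaros family, Scimp, a membrane adaptor gene, Fnbp1 and Stambpl1. At Hivep3, pileup per M was 12.2, 14.7, 12.4 and 11 in the wild type and 7.70, 7.31, 7.60 and 6.97 in the knockout at 72 h, with 10, 10, 9 and 8 peaks against 6, 5, 5 and 4. At Ikzf3 it was 20.02, 26.3, 18 and 18.9 against 13.4, 13.1, 12.2 and 10.9. At Scimp it was 13.5, 16.4, 15.4 and 13.7 against 8.59, 9.24, 8.49 and 9.26, with 13, 13, 13 and 14 peaks against 7, 8, 7 and 9.

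The lack of overlap per M was the condition for naming these clusters and is no result. Scaled values are the same pileups divided by a factor per library, so they are no separate support for the choice. After scaling the groups did not overlap at Hivep3 (−0.49), Ikzf3 (−0.48), Scimp (−0.47) and Stambpl1 (−0.42). The gap was narrow at Ikzf3 (lowest wild type value 18.32, highest knockout value 18.16) and at Stambpl1 (12.66 and 12.55). At Fnbp1 the groups overlapped after scaling (−0.47). In untreated cells Ikzf3 had 30.0, 32.3, 36.2 and 38 in the wild type and 29.7, 15.8 and 30.5 in the knockout, and Hivep3 had 3.35, 4.90, 4.33 and 6.37 against 4.52, 1.42 and 5.31, and the groups overlap at both. Among the 6 higher after scaling were Rbm38 (0.38), Sfi1 (0.37), Plek (0.20) and Tnfrsf8 (0.06).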

How the data were processed

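The 500 clusters, gene lists and alternatives were chosen with earlier results of these data known. The submitters' processing notes name Trim Galore 0.5.0, Bowtie2 2.2.9, MACS2, HOMER 4.10.4 and the build mm10. Per the file headers, MACS2 2.1.1.20160309 called peaks per library at a q value of 0.05 and kept 1 fragment per position. The pileup signal deposited by the authors is the coverage in fragments at a peak's summit, and is not scaled by depth. The −log10 q values the authors deposited with the peaks ranked no cluster and served in 1 alternative, a minimum of 5. How the final lists were made from lists of merged replicates is not stated in the labels or files.

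Clusters, overlaps (at least 1 bp) and gene contents were computed with Python 3.11.15 and pandas 2.3.3. Gene names and bounds came from RefSeq, GRCm38.p6. The members of the 14 gene lists were picked for this report, and RefSeq served only to match their symbols or synonyms to genes. Summed pileup per M (mega) fragments was compared as log2 (value + 0.5), so changes of low clusters are understated, by limma 3.58.1 (R 4.3.3) with a trended variance, over every cluster with a peak in at least 3 libraries of the 2 groups. P-values were adjusted by Benjamini-Hochberg over all tested clusters, and calls made at an adjusted p under 0.05. Differences are log2, each with its SE from limma. Tested on simulated data, the knockout activation fit recovered 160 of 200 clusters planted at a log2 change of 1 after median scaling and 0 per M, and 197 and 116 at a change of 2. With clusters planted it made 0 to 17 false calls, and with none planted 0. Changes were planted only in clusters above the median level, and noise was drawn separately for each cluster. Recovery in weak clusters, and calls under a shift shared by a whole library, were therefore not tested.

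Clusters were named by rule: ranks 1 to 10 and 498 to 503, up to 10 per direction of each tested comparison with the lowest adjusted p, up to 5 per direction of each described one with the largest difference among groups that do not overlap, and up to 6 genes per list in the highest-ranked clusters. Further members of the lists, and clusters at microRNAs, Morrbid, Mbp, Rbm38 and Plek, were named after their values were seen. Alternatives covered scaling, the measure, filters, joining distance, list size and each library left out. No 2 library lists shared more than 0.00901% of peaks identical in both bounds and pileup, so no list is a copy of another. This is no measure of how far peaks of different libraries overlap. Intervals for counting error were not computed, since pileups at summits are not independent counts. Some members of the gene lists are not reported here by name.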

Additional observations from a re-analysis of the deposited data

How the results depend on the processing

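Per M fragments, 26 clusters were higher and 62 lower in knockout activation. Scaling by total pileup gave 127 and 246, median scaling 179 and 187, number of peaks 114 and 3, bases covered 96 and 1, and mean pileup per peak 5 and 127. Over all 26064 clusters total pileup gave 13034 and 6161, median scaling 14324 and 4437, number of peaks 7456 and 84, and bases covered 9194 and 244. Mean pileup per peak gave 578 and 3726 of all 14205. Joining at 5 kb gave 50 higher (14424 of all 38635) and at 20 kb 12 (7636 of all 19104). Ranking by pileup gave 17 higher (10148 of all 26064), and an equal number of strongest peaks 147 lower (3204 of all 19454). The 250 densest clusters held 8 and 32 and the 1000 densest 66 and 120, when 10148 and 1962 of all were called. A fit of all 15 libraries together gave 46 and 140, when 11075 and 4380 of all were called. Leaving out 1 library gave 17 to 40 higher and 14 to 386 lower, after median scaling 160 to 179 and 165 to 191, and by number of peaks 76 to 149 and 2 to 10 (6 without activated knockout library 1). Each highest lower count, and the 40, came without knockout library 3 at 0 h, except the 191.

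Same-numbered libraries gave correlations of their deviations of −0.013, 0.002 and 0.002 for knockout activation, and −0.112, −0.110 and 0.241 at 0 h. The 0.241, for libraries 4, was the highest of all untreated pairs. Deviations were taken from means of 3 or 4 libraries, which ties them together. Whether replicate numbers pair the samples can therefore not be settled here. With the replicate block, knockout activation gave 18 higher and 15 lower per M, 172 and 171 after median scaling, and 41 and 5 by number of peaks. Over all 26064 clusters these were 9655 and 750, 12243 and 3827, and 6770 and 85. The untreated comparison gave 0 lower.

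The count of 2 clusters lower in untreated knockout cells was 0 with a pseudocount of 2, scaling by total pileup or the median, equal numbers of peaks, a −log10 q of at least 5, bases covered, mean pileup, joining at 5 or 20 kb, ranking by pileup or the top 250. It was 1, not matched by name to the 2, with no filter, number of peaks, no trend or 1 fit of all libraries, and 0 to 3 with 1 library left out. The described wild type median of −0.58 was 0.053 by bases covered, 0.020 after median scaling and 0.25 by number of peaks, −0.87 with equal numbers of peaks and −0.17 by total pileup, and −0.65 to −0.48 with 1 library left out. The described genotype median at 72 h of −0.30 was −0.15 by mean pileup, −0.062 after median scaling, −0.11 by number of peaks, −0.047 by total pileup, and −0.38 to −0.26 with 1 library left out. The causes were not tested.

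Of 210 alternative values for the 10 named higher clusters 199 kept direction and call, and of 210 for the lower ones 192. Direction turned at Olig3 (0.037, bases covered), Arhgap25 (0.0087, number of peaks), Tnfaip3 (0.12, number of peaks) and Pgm1 (−0.049, mean pileup per peak). Depth limits the lists too: a peak under the calling threshold counts as 0 here.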

Other observations

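Chromosome 1 held 45 of the 500 clusters, out of its 2007 clusters in all, chromosome 2 held 44 of 2371, chromosome 11 held 42 of 1698 and chromosome 10 held 37 of 1586. Chromosome 5 held 18 of 1712, chromosome 13 held 18 of 1468, and the X chromosome 4 of 857. These chromosomes were picked out after their counts were seen, and no test was run on them.

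Promoters in the clusters that rose after median scaling in the knockout and in those that fell held these motif letters. ETS letters were in 35 of 280 windows with a peak in rising clusters and 89 of 445 in falling ones, RUNX letters in 3.93% and 6.74%, NFAT letters in 6.07% and 3.82%, and AP-1 letters in 7.14% and 6.74%. Windows of 1 gene can overlap, so they are not independent, and these shares were not tested.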
